A study of Mus musculus with 12 samples.

Results

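Lyz2, Mpeg1, Cybb, Clec7a, Cd14, Fcgr1, Ly6c2, Tyrobp, Laptm5 and Cd68 are genes of monocytes, macrophages and other phagocytes. They lie outside the list of markers used here for the resident liver macrophage, the Kupffer cell. The 10 genes were chosen by gene symbol, with no measured value in the rule, though earlier results of these data were known. All 10 were found among the 12284 named genes of the table. Their RNA was compared between 6 liver libraries of double knockout mice (DKO) and 6 of control mice (WT), all on a Western diet. Throughout, n counts libraries.

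Every mouse carried floxed alleles of both Acly and Acss2. DKO mice were given AAV8-TBG-Cre, an adeno-associated virus whose hepatocyte promoter TBG drives Cre recombinase, and WT mice were given AAV8-TBG-GFP, so the groups differ in Cre and GFP as well as in the deletion. Injection took place at 6 to 8 weeks of age, and the Western diet began 1 week later and lasted 6 weeks. Sex was not given in the sources used here, and nothing states that each library is a separate mouse, so p-values measure the spread between these libraries, which may be technical. Whole liver was sequenced, with hepatocytes as the target of the promoter, and the phagocytes in it were neither sorted nor counted.

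Values are log2 CPM, the authors' filtered and normalized log2 read counts scaled to library size, and differences are DKO minus WT on that scale. On the linear scale a library held 905964 to 1087992 CPM in all; its read depth is unknown, and counting error can therefore not be stated. Acly averaged 5.10 ± 0.86 log2 CPM in DKO livers and 7.61 ± 1.00 in WT livers, and Acss2 4.33 ± 0.82 in DKO livers and 6.51 ± 0.48 in WT livers (SD, n = 6 each), with limma adjusted p of 0.0165 and 0.00571. The Acly ranges overlapped, since DKO 1, at 6.60 log2 CPM, lay above WT 5, at 6.56. DKO 1 was also the highest DKO library for Acss2, at 5.74 log2 CPM, where the groups did not overlap. All hepatocyte markers of the list used here were measured, and Asgr1, a receptor for asialoglycoproteins, fell to 78.4% of WT (limma adjusted p = 0.0452), a call kept with 1 library left out only without WT replicate 1 or DKO replicate 6 (otherwise 0.0651 to 0.105). The call of Asgr1 was also lost without the mean trend in limma (adjusted p = 0.0793) and with quantile normalization, where its difference was -0.19, against -0.35 as deposited (adjusted p = 0.277). A gene is said to rise or fall where its limma adjusted p over all 12284 genes was below 0.05.

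Phagocytes recognise microbes, antibody-coated particles and dead cells through surface receptors, pass the signal on through adaptors that carry an immunoreceptor tyrosine-based activation motif (ITAM), and destroy what they take up in phagosomes that fuse with lysosomes. In the liver this work is shared by Kupffer cells, which reside in the sinusoids, and by monocytes that arrive from the blood. Many myeloid genes are controlled by the ETS factor PU.1, encoded by Spi1, which binds purine-rich DNA around a GGAA core. Spi1 itself, named after its value was seen, averaged 3.16 ± 0.35 log2 CPM in DKO livers and 2.55 ± 0.41 in WT livers (SD, n = 6 each; difference 0.61, SE 0.21; limma adjusted p = 0.155).

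Promoter sequences were matched by symbol for 8 of the 10 genes in RefSeq's annotation of GRCm38.p6, from 250 bases before to 50 after the annotated start. Clec7a and Lyz2 are shown because they rose in DKO liver, Cybb because it is a textbook myeloid gene that did not pass, and Ly6c2 because it carries the longest matches. Capitals mark GAGGAA and AGGAAGT, the forms of the PU.1 core that were searched on both strands, so that TTCCTC and ACTTCCT are their reverse complements. The 2 motifs overlap where both are met in GAGGAAGT.
Clec7a (chr6:129472730-129473029, minus strand): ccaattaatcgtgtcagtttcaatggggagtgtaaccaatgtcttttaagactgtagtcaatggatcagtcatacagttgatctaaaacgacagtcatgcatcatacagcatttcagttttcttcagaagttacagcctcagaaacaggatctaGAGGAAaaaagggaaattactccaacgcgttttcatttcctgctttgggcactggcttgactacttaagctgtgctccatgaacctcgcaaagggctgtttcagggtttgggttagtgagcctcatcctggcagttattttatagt
Lyz2 (chr10:117282223-117282522, minus strand): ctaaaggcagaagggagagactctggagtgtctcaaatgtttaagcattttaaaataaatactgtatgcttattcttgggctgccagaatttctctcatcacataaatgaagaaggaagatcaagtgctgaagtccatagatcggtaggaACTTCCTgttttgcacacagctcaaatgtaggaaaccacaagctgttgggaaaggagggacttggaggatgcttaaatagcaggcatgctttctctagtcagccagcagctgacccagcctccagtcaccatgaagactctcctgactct
Cybb (chrX:9469275-9469574, minus strand): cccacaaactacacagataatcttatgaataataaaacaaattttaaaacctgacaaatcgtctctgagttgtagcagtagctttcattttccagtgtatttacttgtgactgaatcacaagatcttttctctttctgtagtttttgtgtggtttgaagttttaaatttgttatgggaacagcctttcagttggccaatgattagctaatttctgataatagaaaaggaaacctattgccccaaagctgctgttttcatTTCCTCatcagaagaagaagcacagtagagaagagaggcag
Ly6c2 (chr15:75111922-75112221, minus strand): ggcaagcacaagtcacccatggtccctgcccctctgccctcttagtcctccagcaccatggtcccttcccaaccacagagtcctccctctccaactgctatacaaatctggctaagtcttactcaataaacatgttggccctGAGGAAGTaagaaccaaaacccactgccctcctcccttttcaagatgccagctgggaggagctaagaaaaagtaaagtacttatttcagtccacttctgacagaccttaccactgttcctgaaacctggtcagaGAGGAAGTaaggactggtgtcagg
GAGGAA was found in 6 of the 8 promoters and in 28.3% of the promoters of all 27025 genes, and AGGAAGT in 3 of the 8 and in 9.57% of all. Either was found in 7 of the 8 and in 32.8% of all. The window of Mpeg1 held neither. Such a match describes the letters of the window and does not show binding.

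Across the 10 genes, 2 rose in DKO livers, 0 fell and all 10 had a higher mean in DKO. For comparison, 0.619% of all genes rose, 1.12% fell, 1.74% were called in either direction and 50.8% had a higher mean in DKO. The median difference of the 10 was 0.64 on the log2 scale, against a median of 0.00 over all genes. At an unadjusted limma p below 0.05 there were 7 of the 10, against 16.4% of all genes. None of the 10 separated the groups completely, while 0.79% of all genes did so with DKO above WT. Since the 10 were chosen with earlier results of these data known, these counts describe them and are not a test. In whole tissue, more phagocytes and more RNA of these genes per phagocyte cannot be told apart.

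**Figure D1:**
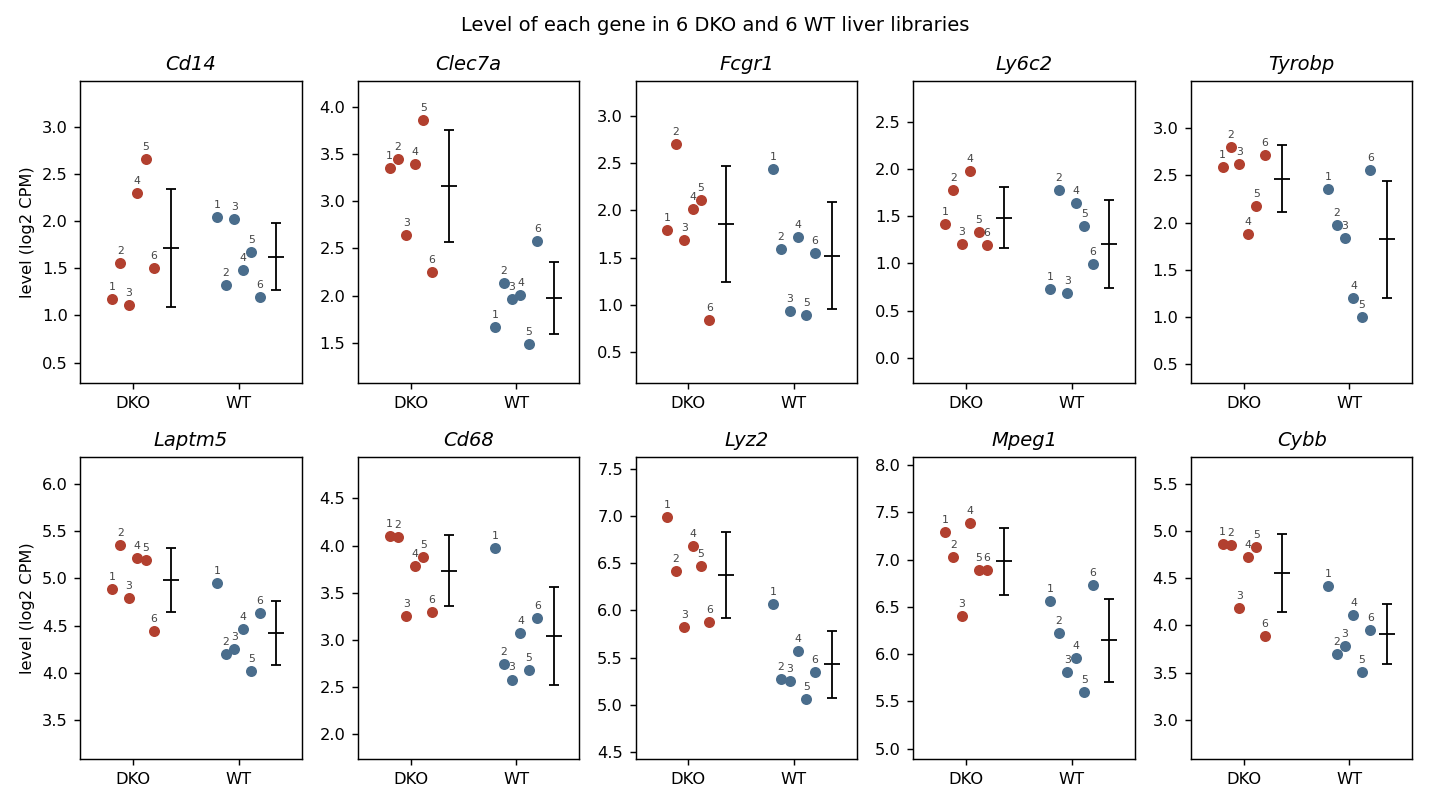
Level of each of the 10 genes (log2 CPM, each panel spanning the same range) in the 6 DKO libraries (left, red) and the 6 WT libraries (right, blue), numbered by replicate, with the mean and SD as black bars. Clec7a and Lyz2 stand highest above WT, 5 and 4 of the 6 DKO libraries lying above the highest WT library, while Cd14 and Fcgr1 overlap broadly.

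The genes of microbial killing were led by Lyz2, lysozyme M, the enzyme that cuts bacterial cell walls and one of the most common labels of mouse myeloid cells. Lyz2 stood at 5.82 at the lowest, 6.44 at the median and 6.99 log2 CPM at the highest in DKO livers, against 5.06, 5.31 and 6.07 in WT livers. The ranges met only because WT 1, at 6.07, lay above the DKO libraries 3 and 6, and the other 5 WT libraries were below every DKO library. Lyz2 rose 1.93-fold (difference 0.95, SE 0.21, 95% interval 0.50 to 1.39; limma adjusted p = 0.0357; 2-sided exact permutation p = 0.00649). Mouse liver Lyz2 has a close relative, Lyz1, which was not found by symbol among the 12284 named genes. The level of Lyz2 may hold reads of Lyz1.

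Mpeg1 encodes perforin-2, a pore-forming protein of phagosomes. Its level was 6.40, 6.96 and 7.39 log2 CPM (lowest, median, highest) in DKO livers and 5.60, 6.09 and 6.73 in WT livers. All DKO libraries but DKO 3 lay above the highest WT library, WT 6. The difference was 0.84 (SE 0.20, 95% interval 0.40 to 1.27, 1.79-fold), and it narrowly missed the threshold (limma adjusted p = 0.0532; exact permutation p = 0.00866). Mpeg1 was called in 5 of the 20 alternatives run, with limma adjusted p from 0.0232 to 0.113 over all of them. These were the fits without WT replicate 1, WT replicate 6 or DKO replicate 3, with array weights and with the replicate block.

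Cybb encodes gp91phox, the electron-carrying chain of the phagocyte NADPH oxidase. It measured 3.89, 4.78 and 4.86 log2 CPM (lowest, median, highest) in DKO livers and 3.51, 3.87 and 4.41 in WT livers. DKO 1, 2, 4 and 5 stood together above every WT library, and DKO 3 and DKO 6 lay within the WT range. The difference of 0.65 (SE 0.19, 95% interval 0.23 to 1.06) did not pass (limma adjusted p = 0.104; exact permutation p = 0.0195). Cybb passed in 1 of the 20 alternatives, without DKO replicate 6 (limma adjusted p = 0.0349). Of its 7 oxidase partners, 6 were higher in DKO, 0 were called by limma (1 without DKO replicate 6) and 2 had an unadjusted p below 0.05, with a median difference of 0.45. Cyba, the p22phox chain that pairs with gp91phox in the membrane, came closest with 3.33 ± 0.42 log2 CPM in DKO livers and 2.61 ± 0.33 in WT livers (SD, n = 6 each; difference 0.72, SE 0.21; limma adjusted p = 0.0924).

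Among the sensing receptors Clec7a stood apart from Cd14 and Fcgr1. Clec7a encodes Dectin-1, the C-type lectin that recognises fungal beta-glucan and signals through Syk. Its level was 2.24 at the lowest, 3.37 at the median and 3.86 log2 CPM at the highest in DKO livers, against 1.49, 1.98 and 2.58 in WT livers. DKO 6 was the only DKO library within the WT range, and WT 6 the only WT library above the lowest DKO library. Clec7a rose 2.27-fold, the largest difference of the 10 (1.18, SE 0.26, 95% interval 0.62 to 1.75; limma adjusted p = 0.0381; exact permutation p = 0.00433).

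Cd14 encodes the co-receptor that hands bacterial lipopolysaccharide to Toll-like receptor 4. It reached 1.11, 1.52 and 2.66 log2 CPM (lowest, median, highest) in DKO livers and 1.20, 1.57 and 2.04 in WT livers. DKO 4 and DKO 5 were above all WT libraries and the other 4 DKO libraries below the WT mean. The difference was 0.09 (SE 0.28, 95% interval -0.51 to 0.69; limma adjusted p = 0.911), and its sign turned to -0.10 without DKO replicate 5, to -0.024 without DKO replicate 4 and to -0.027 after quantile normalization. In the list of Toll-like receptors and endotoxin sensing, 11 of 15 measured genes were higher in DKO, 0 were called by limma and 5 had an unadjusted p below 0.05, with a median difference of 0.20. Of these 5, 4 were higher in DKO and 1 lower, Tlr5, the flagellin receptor, at 3.05 log2 CPM on average in DKO livers and 3.72 in WT livers (difference -0.68; limma adjusted p = 0.210). The lowest p was that of Tlr2, a receptor for bacterial lipoproteins, with 1.78 ± 0.33 log2 CPM in DKO livers and 1.17 ± 0.36 in WT livers (SD, n = 6 each; difference 0.60, SE 0.22; limma adjusted p = 0.176).

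Fcgr1 encodes the high-affinity receptor for IgG. Its level was 0.84, 1.90 and 2.70 log2 CPM (lowest, median, highest) in DKO livers and 0.90, 1.57 and 2.44 in WT livers. The lowest value of all 12 libraries was that of DKO 6, and WT 1 lay above every DKO library but DKO 2. The difference was 0.33 (SE 0.32, 95% interval -0.34 to 1.01; limma adjusted p = 0.657). Of 5 other Fc receptor genes, 4 were higher in DKO and 0 were called by limma (1 without DKO replicate 6, and 1 after subtraction of library medians), with 1 of the 4 and the fifth at an unadjusted p below 0.05. The fifth was Fcgrt, the neonatal Fc receptor that recycles IgG and albumin in hepatocytes and other cells, at 6.77 ± 0.15 log2 CPM in DKO livers and 7.11 ± 0.12 in WT livers (SD, n = 6 each; difference -0.34, SE 0.08; limma adjusted p = 0.0558).

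Ly6c2, a lipid-anchored surface protein that marks classical monocytes, differed between the groups by less than the SD of either. It measured 1.19, 1.37 and 1.97 log2 CPM (lowest, median, highest) in DKO livers and 0.69, 1.20 and 1.78 in WT livers. WT 2 lay above 5 and WT 4 above 4 of the 6 DKO libraries, and WT 1, WT 3 and WT 6 below all of them. The difference was 0.28 (SE 0.24, 95% interval -0.24 to 0.80; limma adjusted p = 0.625). Ly6c1, a close relative found on endothelium, was not found by symbol among the 12284 named genes. Reads of Ly6c1 may have been counted under Ly6c2. Of 10 measured genes of monocytes and recruited macrophages, 9 were higher in DKO and 1 rose. The tenth, Fn1, which encodes fibronectin and is also made by hepatocytes, averaged 10.59 log2 CPM in DKO livers and 10.78 in WT livers (limma adjusted p = 0.294), and with it the list summed to 1364 to 1730 CPM in DKO livers and 1610 to 1960 CPM in WT livers. The one that rose was Ccr2, the chemokine receptor that brings monocytes out of bone marrow and into tissue, at 1.55 ± 0.43 log2 CPM in DKO livers and 0.15 ± 0.49 in WT livers (SD, n = 6 each; difference 1.40, SE 0.28; limma adjusted p = 0.0244), and its adjusted p was 0.0604, 0.0505, 0.0565 and 0.0597 without WT replicate 2, WT replicate 3, DKO replicate 3 and DKO replicate 4, and 0.0518 with quantile normalization.

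Tyrobp encodes DAP12, the membrane adaptor whose ITAM couples receptors such as TREM2 to the kinase Syk. Its level was 1.88, 2.60 and 2.80 log2 CPM (lowest, median, highest) in DKO livers and 1.00, 1.91 and 2.55 in WT livers. All 6 DKO libraries lay above the WT mean, yet WT 1 and WT 6 were higher than DKO 4 and DKO 5. The difference of 0.64 (SE 0.27, 95% interval 0.06 to 1.22) did not pass (limma adjusted p = 0.255; exact permutation p = 0.0563). In the list of ITAM adaptors, kinases and effectors, 17 of 18 measured genes were higher in DKO, with a median difference of 0.56. Of the 18, 1 rose (4 without WT replicate 1, 2 without DKO replicate 6 and 3 with array weights) and 0 fell. The list also holds inhibitory receptors, Sirpa among them, and phosphatases. The one that rose was Sirpa, the receptor for CD47 that restrains phagocytosis, at 5.01 ± 0.40 log2 CPM in DKO livers and 3.93 ± 0.23 in WT livers (SD, n = 6 each; 2.10-fold; difference 1.07, SE 0.17; limma adjusted p = 0.00772). With any 1 library left out, Sirpa had an adjusted p of at most 0.0257, and its groups did not overlap. Syk, named after its value was seen, differed by 0.78 (SE 0.21; limma adjusted p = 0.0821).

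The lysosomal genes differed by a similar amount and did not pass. Cd68, a heavily glycosylated protein of macrophage lysosomes, stood at 3.25, 3.83 and 4.10 log2 CPM (lowest, median, highest) in DKO livers and 2.58, 2.91 and 3.98 in WT livers. WT 1 lay above 4 of the 6 DKO libraries, while the other 5 WT libraries were below all of them. The difference was 0.69 (SE 0.24, 95% interval 0.18 to 1.19; limma adjusted p = 0.155; exact permutation p = 0.0325), and without WT replicate 1 it was 0.87 (adjusted p = 0.0306).

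Laptm5, a lysosomal membrane protein of leukocytes that promotes turnover of antigen receptors, had 4.44, 5.04 and 5.36 log2 CPM (lowest, median, highest) in DKO livers and 4.02, 4.36 and 4.95 in WT livers. DKO 2, 4 and 5 were above the highest WT library, again WT 1. The difference was 0.56 (SE 0.18, 95% interval 0.18 to 0.94; limma adjusted p = 0.119; exact permutation p = 0.0216), and it passed without WT replicate 1 (adjusted p = 0.0463).

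The calls of Lyz2 and Clec7a lay close to the threshold. Lyz2 kept an adjusted p below 0.05 without WT replicate 1, DKO replicate 3 or DKO replicate 6 (lowest 0.0114), and was between 0.0574 and 0.0865 without any 1 of the other 9 libraries. Clec7a kept it without WT replicate 1, WT replicate 6, DKO replicate 3 or DKO replicate 6 (lowest 0.0126), and was between 0.0683 and 0.0920 without any 1 of the other 8. Of the 10 genes, 5 rose without WT replicate 1, 3 each without DKO replicate 3 and DKO replicate 6, 2 without WT replicate 6 and 0 without any 1 of the other 8 libraries. Both differences kept their sign in all 20 alternatives run, with 0.82 to 1.08 for Lyz2 and 1.01 to 1.37 for Clec7a. Both calls were lost without the mean trend (adjusted p = 0.0649 for Lyz2 and 0.0582 for Clec7a), and that of Clec7a also with quantile normalization (0.0600) and with the replicate block (0.0693).

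**Figure D2:**
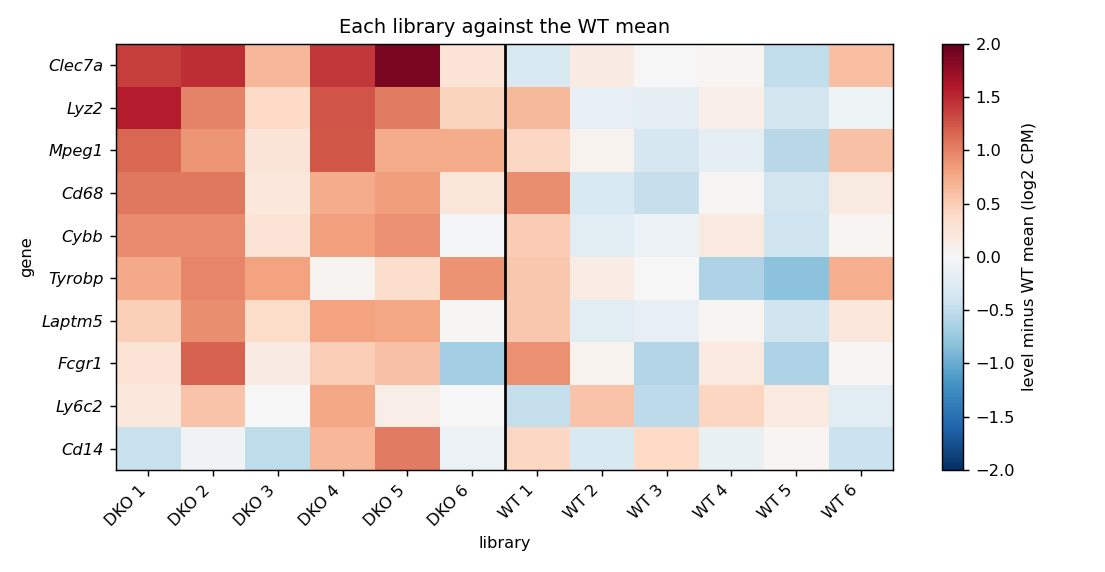
Level of each gene in each library minus the WT mean of that gene (log2 CPM, colour scale from -2 to 2), with genes in rows from the largest to the smallest difference and libraries in columns, DKO left of WT. DKO 3 and DKO 6 are the palest DKO columns, WT 1 is the warmest WT column and WT 5 the coldest.

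Several of the genes moved together from library to library within the groups. WT 1 had the highest WT value for 6 of the 10 genes and WT 5 the lowest for 7, and in DKO the lowest value fell to DKO 6 for 5 genes and to DKO 3 for 4. The general leukocyte genes (Ptprc, which encodes CD45, with Cd53, Coro1a, Lcp1, Cd48, Cd37, Arhgdib and Rac2) varied in the same direction, with a mean of 2.45 log2 CPM in DKO 6 against 2.89 to 3.43 in the other DKO libraries, and of 2.92 in WT 1 and 2.19 in WT 5 against 2.44 to 2.64 in the other WT libraries. Deviations from the group mean were compared with this leukocyte mean over 12 libraries, as a description without a test, since all genes of a library share its preparation and scaling. Pearson's r was 0.96 for Laptm5, 0.94 for Fcgr1 and 0.94 for Cybb (Spearman's rho 0.98, 0.92 and 0.86), and 0.95, 0.89 and 0.86 when WT 5 and DKO 6, the libraries farthest from the median, were left out. It was 0.80 for Cd68, 0.74 for Lyz2 and 0.53 for Mpeg1 (rho 0.76, 0.78 and 0.57; 0.84, 0.63 and 0.50 without those libraries). For Clec7a it was 0.66 (rho 0.66) but 0.22 without those libraries, so that relation rests on them. Cd14, Tyrobp and Ly6c2 had r of 0.35, 0.16 and 0.15 (rho 0.47, 0.17 and 0.20; 0.44, 0.07 and 0.09 without those libraries). Against the mean of the Kupffer cell markers, r was 0.93 for Cd68, 0.92 for Laptm5, 0.89 for Cybb, 0.85 for Fcgr1 and 0.79 for Lyz2 (rho 0.87, 0.92, 0.87, 0.88 and 0.80). It was 0.64 for Mpeg1, 0.52 for Clec7a, 0.47 for Cd14, 0.29 for Tyrobp and -0.13 for Ly6c2 (rho 0.71, 0.73, 0.44, 0.27 and 0.10).

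Over the 45 pairs among the 10 genes, r of the same deviations ran from -0.50 to 0.92 with a median of 0.39 (rho -0.42 to 0.90, median 0.45), and 41 pairs were above 0. The highest pair was Fcgr1 with Laptm5 and the lowest Ly6c2 with Tyrobp. Outside the 10, the genes whose deviations were most like the standardised mean of the 10 were Ctss, which encodes the lysosomal protease cathepsin S (r 0.96, rho 0.94), Emr1, the F4/80 antigen of mouse macrophages (0.96, 0.94), Cd5l, a secreted macrophage protein (0.95, 0.92), C1qc, a chain of complement C1q (0.95, 0.96), and Iqgap1, a scaffold of the actin cortex (0.93, 0.86). Emr1, Cd5l and C1qc also belong to the Kupffer cell markers used here. Without WT 5 and DKO 6 the r of the 5 genes lay between 0.88 and 0.98. None of these 5 was called by limma with all libraries, though without WT replicate 1 Emr1, Cd5l and C1qc were (adjusted p = 0.0415, 0.0462 and 0.0389). All 5 had an unadjusted p below 0.05, and their differences between the groups lay between 0.56 and 0.65 on the log2 scale.

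The leukocyte mean was 3.05 ± 0.35 log2 CPM in DKO livers and 2.54 ± 0.24 in WT livers (SD, n = 6 each), a difference of 0.51. Subtracting it from each library lowers every gene's difference by that amount and leaves their order as it was, while the error of each gene depends on how closely it followed the leukocyte genes. Relative to the leukocyte mean, the difference was 0.67 for Clec7a (SE 0.24, 95% interval 0.16 to 1.18; limma adjusted p = 0.0488; exact permutation p = 0.00866), 0.44 for Lyz2 (SE 0.19, interval 0.03 to 0.84; adjusted p = 0.0798) and 0.32 for Mpeg1 (SE 0.21, interval -0.11 to 0.76; adjusted p = 0.202). Cd68, Cybb, Tyrobp and Laptm5 lay between 0.05 and 0.17, and their intervals together ran from -0.49 to 0.75. For Fcgr1, Ly6c2 and Cd14 the relative difference was -0.18, -0.23 and -0.42, with intervals that together ran from -1.04 to 0.41. Thus 1 of the 10 genes was called higher and 0 lower in DKO relative to general leukocyte genes. On this scale 0.342% of all genes were higher and 25.1% lower (25.4% in all). The many genes that the subtraction makes lower ease the adjustment of p. As deposited, Cd68 had an unadjusted limma p of 0.0116 and an adjusted p of 0.155. On the relative scale Clec7a had 0.0120 unadjusted and 0.0488 adjusted. Clec7a was called on this scale without DKO replicate 3 or DKO replicate 6 (adjusted p 0.0488 and 0.0170) and was between 0.0524 and 0.116 without any 1 of the other 10 libraries.

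The mean of 12 Kupffer cell markers was 5.21 ± 0.27 log2 CPM in DKO livers and 4.67 ± 0.32 in WT livers (SD, n = 6 each). Relative to it, the difference was 0.64 for Clec7a (SE 0.26, 95% interval 0.11 to 1.18; limma adjusted p = 0.0532; exact permutation p = 0.0238), 0.41 for Lyz2 (SE 0.18, interval 0.03 to 0.79; adjusted p = 0.0750; exact permutation p = 0.00649) and -0.45 for Cd14 (SE 0.29, interval -1.05 to 0.15; adjusted p = 0.193). On this scale 0 of the 10 genes were called by limma and 2, Clec7a and Lyz2, had an unadjusted p below 0.05, where 0.366% of all genes were higher and 37.3% lower (37.7% in all). The many genes made lower ease the adjustment here as well. With 1 library left out, 1 of the 10 was called without WT replicate 1 (Lyz2) and without WT replicate 6, DKO replicate 3 or DKO replicate 6 (Clec7a each time).

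**Figure D3:**
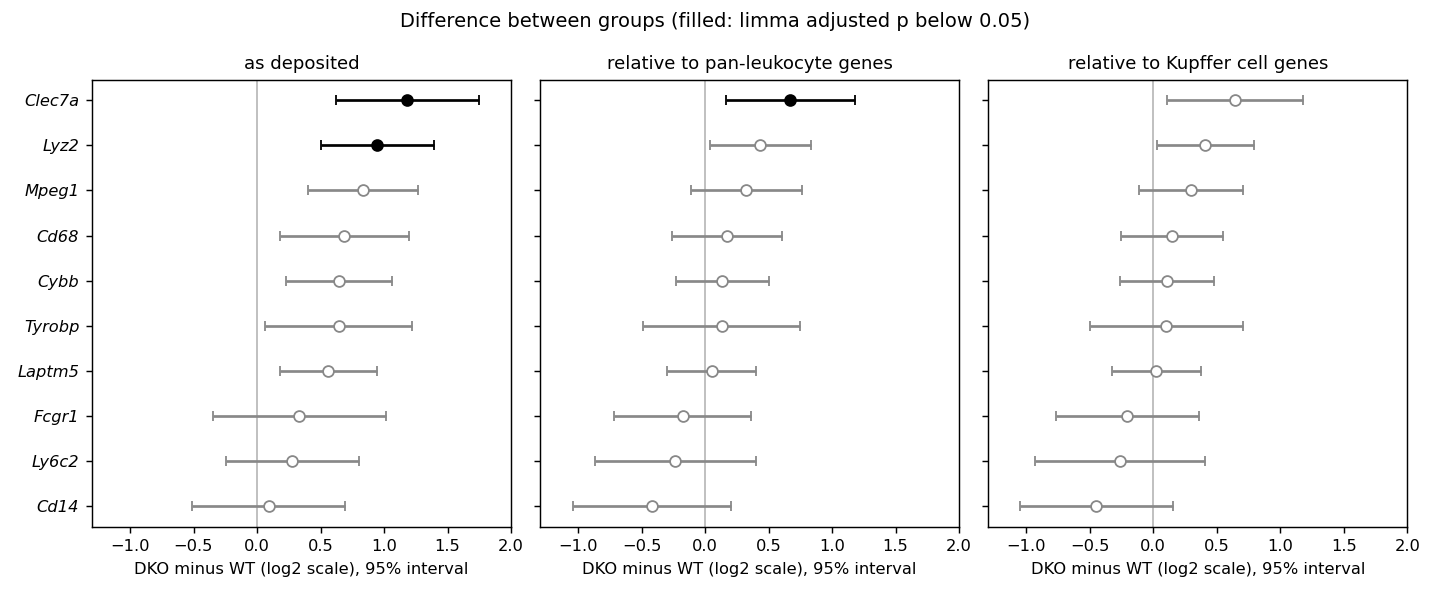
Difference between DKO and WT (log2 scale, points) with its 95% interval (bars) for each gene, as deposited (left), relative to the mean of general leukocyte genes (middle) and relative to the mean of Kupffer cell markers (right), filled where the limma adjusted p was below 0.05. All points of a panel are shifted by the same amount against the left panel; of 7 genes at 0.56 or above on the left, 4 lie at 0.17 or below in the middle.

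Markers of the other cells in whole liver are set beside these values, and their part in the differences of the 10 genes was not tested. General leukocyte genes, without Laptm5, were higher in DKO for 8 of 8 (0 called by limma, 4 at an unadjusted p below 0.05; 1 called without WT replicate 1 and 3 without DKO replicate 6), and summed to 126 to 167 CPM in DKO livers and 112 to 135 CPM in WT livers; Arhgdib came closest (difference 0.53, limma adjusted p = 0.0744). Kupffer cell markers were higher for 10 of 12 (0 called, 10 at an unadjusted p below 0.05; 7 called without WT replicate 1, 1 without DKO replicate 6 and 2 with array weights), with sums of 557 to 799 CPM in DKO livers and 468 to 689 CPM in WT livers, and Timd4, a receptor for dead cells, came closest (0.78, adjusted p = 0.0624). Markers of lipid-associated macrophages were higher for 9 of 9 and 5 rose, Gpnmb (difference 4.63, adjusted p = 0.000851, with 3 WT libraries at the table's lowest value, which sets the size), Mmp12 (2.14, 0.0148), Cd63, Lgals3 and Spp1, with sums of 84.7 to 208 CPM in DKO livers and 45.9 to 100.1 CPM in WT livers. Leukocyte integrins and actin regulators were higher for 18 of 18 (0 called, 8 at an unadjusted p below 0.05; 3 called without WT replicate 1, 4 without DKO replicate 6 and 5 with array weights), with Itgax, the chain of CD11c, at 1.16 ± 1.13 log2 CPM in DKO livers and -0.63 ± 0.25 in WT livers (SD, n = 6 each; adjusted p = 0.0595). Of 14 myeloid transcription factors and growth factor receptors 9 were higher and 0 called (1 without DKO replicate 6), and 8 had an unadjusted p below 0.05, 7 of them higher and 1, Cebpa, a factor that hepatocytes also express, lower (difference -0.44, adjusted p = 0.162). The list summed to 911 to 1229 CPM in DKO livers and 1178 to 1594 CPM in WT livers. Irf8, a factor of monocyte and dendritic cell development, had the lowest p (difference 0.73, adjusted p = 0.120).

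Neutrophils, which also carry Lyz2 and Cybb, were represented by 2 of 13 listed markers, Mmp9 and Lcn2. The rest of that list was not found by symbol among the 12284 named genes. The sum of the 2 was 9.67 to 58.4 CPM in DKO livers and 2.33 to 42.3 CPM in WT livers. Most of this sum was Lcn2, at 4.13 log2 CPM on average in DKO livers and 2.70 in WT livers (limma adjusted p = 0.292). Mmp9 differed by 1.90 (limma adjusted p = 0.103). WT 6 stood at the table's lowest value for Mmp9, and without WT replicate 6 the difference was 1.54 (limma adjusted p = 0.167). Of the 2 genes, 2 were higher in DKO, 0 were called by limma and 2 had an unadjusted p below 0.05. Of 8 dendritic cell genes 6 were higher, with sums of 130.5 to 478 CPM in DKO livers and 96.8 to 135 CPM in WT livers. Cd74, the invariant chain of MHC class II, differed by 0.94 (limma adjusted p = 0.0902). Most of the sum was Cd74 and the MHC class II genes H2-Aa and H2-Ab1, which averaged 6.91, 5.26 and 5.20 log2 CPM in DKO livers. Those lower in DKO were Clec9a (difference -0.19, limma adjusted p = 0.738) and Siglech (-0.75, 0.242). None of the 8 was called by limma with all libraries (5 at an unadjusted p below 0.05, 4 higher and Siglech lower), 2 were without DKO replicate 6 and 3 with the replicate block. Of 5 B and plasma cell genes 5 were higher and Ighm rose (2.22, adjusted p = 0.0453, lost with up to 0.0998 without any 1 of 8 libraries, the 8 being all but WT replicate 1 and DKO replicates 1, 2 and 6, and also lost without the mean trend, with robust moderation, with log2(CPM + 1) and with quantile normalization, at 0.0513 to 0.0748); of 3 T and NK cell genes 1 was higher, with Cd4 at -0.35 (adjusted p = 0.611). Of 10 endothelial, 11 stellate and 5 red cell genes, 10, 9 and 5 were higher and 0 were called by limma (5, 6 and 1 at an unadjusted p below 0.05; 2 endothelial genes called without DKO replicate 6, 1 stellate gene with quantile normalization and 1 with the replicate block), with Cdh5, Col3a1 and Hba-a2 closest (0.34, 0.98 and 0.64; adjusted p = 0.120, 0.0928 and 0.241). Of 4 cholangiocyte genes, 3 were higher and Spp1, which macrophages share, rose by 0.88 (adjusted p = 0.0213; without WT replicate 6 it was 0.0560 and without DKO replicate 1 it was 0.0505). Of 12 hepatocyte markers 10 were lower and 1 fell (2 without WT replicate 1), with sums of 64159 to 97011 CPM in DKO livers and 81314 to 96164 CPM in WT livers.

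**Figure D4:**
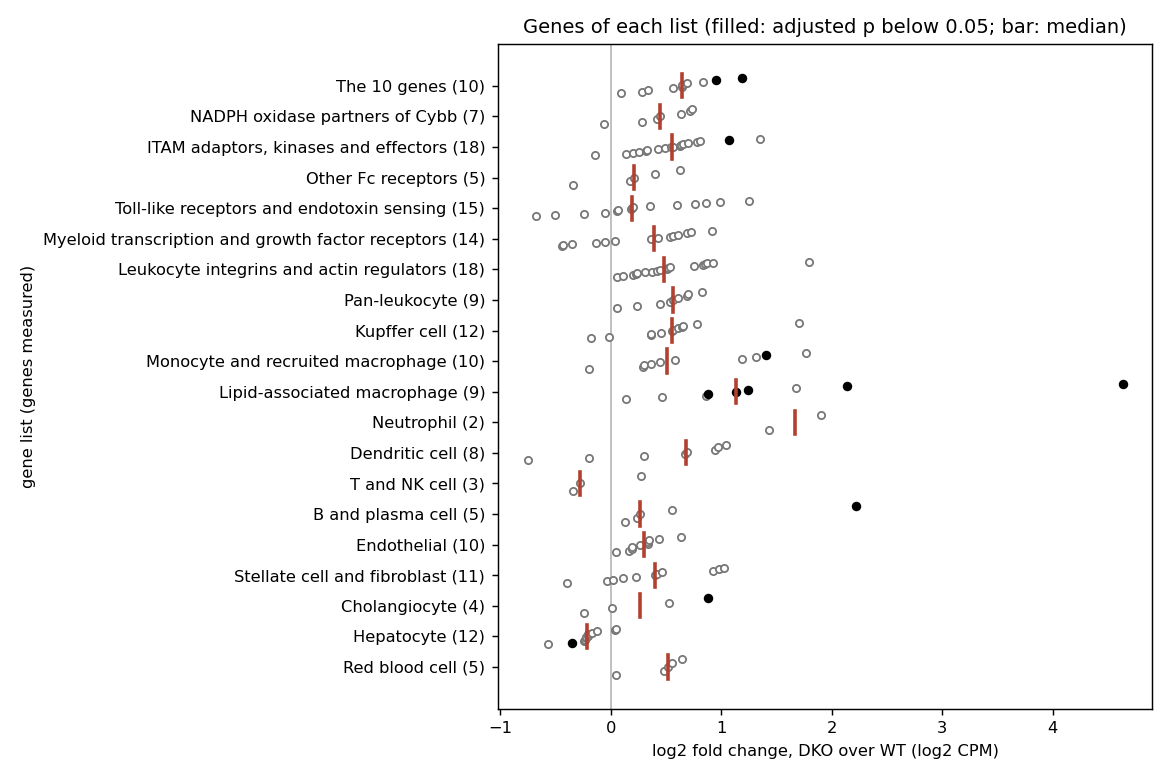
Difference between DKO and WT (log2 fold change, horizontal axis) of every measured gene of the 10 genes and of each gene list (rows, number measured in brackets), with the median as a red bar and filled points where the limma adjusted p was below 0.05. Laptm5 is also a point of the pan-leukocyte row. The median of the 10 genes is 0.64, against 1.13 for lipid-associated macrophage markers, 0.56 for Kupffer cell markers and -0.22 for hepatocyte markers.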

How the data were processed

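Polyadenylated RNA of mouse liver was sequenced in 12 libraries (6 DKO, 6 WT, grouped by the genotype label). The authors deposited log2 CPM that, going by the file's name, were filtered and normalized between libraries; how is not stated in the sources at hand. Kallisto 0.46.2, edgeR, limma and the mouse build GRCm39 (mm39) appear in the submitters' processing notes, without a role. The table's shared lowest value was -3.26 log2 CPM, and 1 row without a gene name, holding 0.0075% to 0.0148% of a library, was left out. Across genes, each library correlated with the mean of its group's other libraries at r of 0.961 to 0.982, and no 2 libraries were duplicates.

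All 12284 genes were fitted with limma 3.58.1 in R 4.3.3 (mean trend, 2-sided, no covariate), adjusted by Benjamini-Hochberg over all genes. Exact permutation tests covered the 924 divisions into 6 and 6 (scipy 1.17.1). Levels relative to leukocyte or Kupffer cell genes were refitted in the same way after subtracting the mean of those genes in each library. The fit was also run on simulated data in which genes varied independently, so that run does not cover genes that vary together. The 10 genes and the lists were chosen with earlier results of these data known. Other genes are named by a rule: of each list, the called genes with the largest changes in each direction (at most 2) or the one closest to passing; the 5 most like the 10 genes; and those said to be named after their values were seen. Symbols were used as deposited, and 2 list genes (Adgre1 and Jchain) were found under older ones (Emr1 and Igj). RefSeq also places Gm45969, Gm38599 and Gm33784 across Clec7a, Laptm5 and Cybb; whether counting used strand is not stated. Alternatives were the fit without the mean trend, robust eBayes, array weights, log2(CPM + 1), a filter at a mean of 1 log2 CPM, library medians, quantile normalization, the replicate number as a block and leaving out each library.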

Additional observations from a re-analysis of the deposited data

Results flagged for a closer look

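3 values stood far from the other 5 of their group, all of them in WT 1, among 74 groups of 6 values examined, where chance gives about 1 such value in 20 groups. Irf8 was 3.43 log2 CPM in WT 1, against 2.47 to 2.80 in the other WT libraries. Timd4, a Kupffer cell marker, was 2.94 log2 CPM in WT 1, against 2.08 to 2.40 in the others. Acss2 was 7.45 log2 CPM in WT 1, against 6.12 to 6.50 in the others. None of the 10 phagocyte genes had such a value, though WT 1 was the highest WT library for 6 of them.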

How the results depend on the processing

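Lyz2, Mpeg1, Cybb, Clec7a, Fcgr1, Ly6c2, Tyrobp, Laptm5 and Cd68 kept a higher mean in DKO in all 20 alternatives, and Cd14 did not: it was -0.027 with quantile normalization and -0.10 to 0.21 with 1 library left out. The number of the 10 genes called, 2 as reported, was 0 without the mean trend, 1 with quantile normalization and 0 to 5 with 1 library left out. Relative to leukocyte genes it was 1 as reported, 2 with log2(CPM + 1), 0 with the replicate block and 0 to 1 with 1 library left out; relative to Kupffer cell genes it was 0, and 0 to 1 with 1 library left out. With 1 library left out, Tyrobp ran from -0.041 to 0.29 relative to leukocyte genes and from -0.019 to 0.23 relative to Kupffer cell genes, and Laptm5 from -0.012 to 0.061 relative to Kupffer cell genes. Over all genes 214 were called, 138 without the mean trend, 109 with quantile normalization, 356 with array weights, 397 with the replicate block and 92 to 373 with 1 library left out. Of the genes called, 35.5% were higher in DKO. Among the 169 list genes (168 without Laptm5), 9 were called, 18 with array weights, 18 with the replicate block and 6 to 26 with 1 library left out. Same-numbered libraries deviated together at r of -0.08 to 0.29 across genes. Libraries of unlike number were not compared in this way, so these values cannot decide whether the numbers pair libraries. The main fit did not pair them. With the replicate block Lyz2 had a limma adjusted p of 0.00556, Mpeg1 0.0232 and Clec7a 0.0693. The cause of these changes was not tested. With read depth unknown, only the spread between libraries sets the precision.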
